A study of Mus musculus with 42 samples.

Results

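The 10 genes described here are heat shock proteins and chaperones: Hspa1a, Hspa1b, Hspa8 and Hspa5 of the HSP70 family, the HSP110 gene Hsph1, the HSP90 genes Hsp90aa1 and Hsp90ab1, the HSP40 gene Dnajb1 and the small heat shock protein genes Hspb1 and Cryab. They were taken as a list of symbols, with no rule on measured values, though earlier results of these data were known. All 10 were found among the 14296 genes of the files. Gene expression was measured by poly-A RNA sequencing in W9.5 cells, a low passage mouse embryonic stem cell line of 129X1/SvJ strain background, which differentiated without direction into embryoid bodies after withdrawal of leukaemia inhibitory factor (LIF). Replicates A and B, cultures that are biological duplicates, were each sampled every 6 h until 120 h, which gave 42 libraries over 21 time points. All libraries came from this single line, and the labels name no heat treatment, added agent or genetic change in any of them. The 0 h libraries are undifferentiated cells, and every later library is defined by its time alone.

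Chaperones bind unfolded or partly folded proteins and keep them from aggregating. HSP70 proteins take up exposed peptide stretches in a cycle driven by ATP, which J-domain proteins such as Dnajb1 start and HSP110 proteins such as Hsph1 reset by exchanging the nucleotide. HSP90 proteins take over clients such as kinases and receptors at a later stage of folding, and small heat shock proteins hold unfolded clients without ATP. Most of these genes have a constitutive level and are also induced by heat shock factor 1 (HSF1), whereas Hspa5 encodes BiP, the HSP70 of the endoplasmic reticulum, and responds to unfolded proteins in that compartment.

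On GRCm38, in the GENCODE vM21 annotation, Hspa1a (ENSMUSG00000091971.2) lies at chr17:34969190-34972156 and Hspa1b (ENSMUSG00000090877.2) at chr17:34956436-34959238, both on the minus strand, with Hsp90ab1 (ENSMUSG00000023944.8, chr17:45567775-45573271, minus) further along the same chromosome. Chromosome 5 holds Hspb1 (ENSMUSG00000004951.10, chr5:135887919-135889563, plus) and Hsph1 (ENSMUSG00000029657.9, chr5:149614287-149636376, minus), and chromosome 9 holds Hspa8 (ENSMUSG00000015656.10, chr9:40800984-40810087, plus) and Cryab (ENSMUSG00000032060.9, chr9:50751325-50756636, plus). The others are Hspa5 (ENSMUSG00000026864.7, chr2:34771970-34777547, plus), Dnajb1 (ENSMUSG00000005483.9, chr8:83608193-83612653, plus) and Hsp90aa1 (ENSMUSG00000021270.7, chr12:110690605-110702728, minus).

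Values are log2 CPM, the base 2 logarithm of the reads of a gene scaled to the size of its library, so that a difference of 1 is a 2-fold change. A gene is said to have risen or fallen only where its adjusted p-value was under 0.0001 in limma over all 14296 genes. The counted reads per library ranged from 10120972 to 51652434, and the 10 genes together took between 1.01% (96 h, replicate A) and 1.81% (6 h, replicate B) of them, with a median of 1.47%. Even the lowest values rested on counted reads, with at least 5 reads for Cryab and 16 for Hspa1a in every library. Embryonic stem cell markers had summed levels of 3614 and 3889 CPM at 0 h and 1658 and 1610 CPM at 120 h, and all 8 were above 3 reads at 0, 48, 96 and 120 h. The cultures were furthest apart at 96 h, where the median absolute difference between replicates over all genes was 0.39 against 0.081 to 0.26 at other times, and summed mesendoderm markers were 105 CPM in replicate A and 481 CPM in replicate B. In bulk RNA, a change in the RNA per cell and a change in the kinds of cells present cannot be told apart.

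Within the first 6 h, 4 of the 10 genes rose and none fell (40.0% called, against 26.3% of all genes, 11.8% higher and 14.5% lower). Hspa1a, Hspa8, Hsph1 and Hspa1b were each at least 2-fold higher at 6 h than at 0 h. The median difference of the 10 genes was 0.72, against -0.05 for all genes. At the looser threshold of 0.05, 8 of the 10 were higher and none lower, against 58% of all genes called in either direction.

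Hspa1a and Hspa1b, neighbouring intronless genes on chromosome 17, encode the stress-inducible HSP70 of the cytosol. Hspa1a stood at 0.98 and 0.60 log2 CPM at 0 h in replicates A and B, at 2.07 and 2.30 at 6 h, at 2.22 in both at 12 h and at 1.97 and 1.93 at 18 h. By 24 h it was at 1.19 and 0.86, and from 30 h to 72 h every library lay between 0.19 and 0.88. The 6 libraries of 6 to 18 h did not overlap those of 0 h and 24 h. The rise was 1.40 ± 0.24 (SE) at 6 h, a 2.63-fold change (adjusted p = 1.49e-05), and 1.43 at 12 h (adjusted p = 1.09e-05), while the 18 h difference of 1.16 was not past the threshold (adjusted p = 0.000182). Later, Hspa1a stood at 0.65 and 0.19 at 72 h and at 1.66 and 1.29 at 96 h, a difference of 1.06 (2.08-fold) that was not past the threshold either (adjusted p = 0.00161). Hspa1b followed the same outline, from 2.25 and 2.39 at 0 h to 3.33 and 3.49 at 6 h and 3.36 and 3.42 at 18 h, then 2.68 and 2.94 at 24 h. Its rise at 6 h was 1.09 ± 0.20 (2.12-fold, adjusted p = 5.27e-05), with 1.08 in replicate A and 1.1 in replicate B. Leaving out each of the 4 libraries of 0 h and 6 h in turn kept the Hspa1b difference at 1.01 to 1.17, with adjusted p between 0.000447 and 0.0018, and that of Hspa1a at 1.21 to 1.59, with its call lost without 6 h replicate A (1.51, adjusted p = 0.000138), 6 h replicate B (1.28, adjusted p = 0.000771) or 0 h replicate B (1.21, adjusted p = 0.00118). The Hspa1a and Hspa1b transcripts are near-identical copies: 56.5% of the 100-base windows of Hspa1a and 49.9% of those of Hspa1b occur in other annotated genes, mostly in each other, so the split of reads between them is uncertain.

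**Figure D1:**
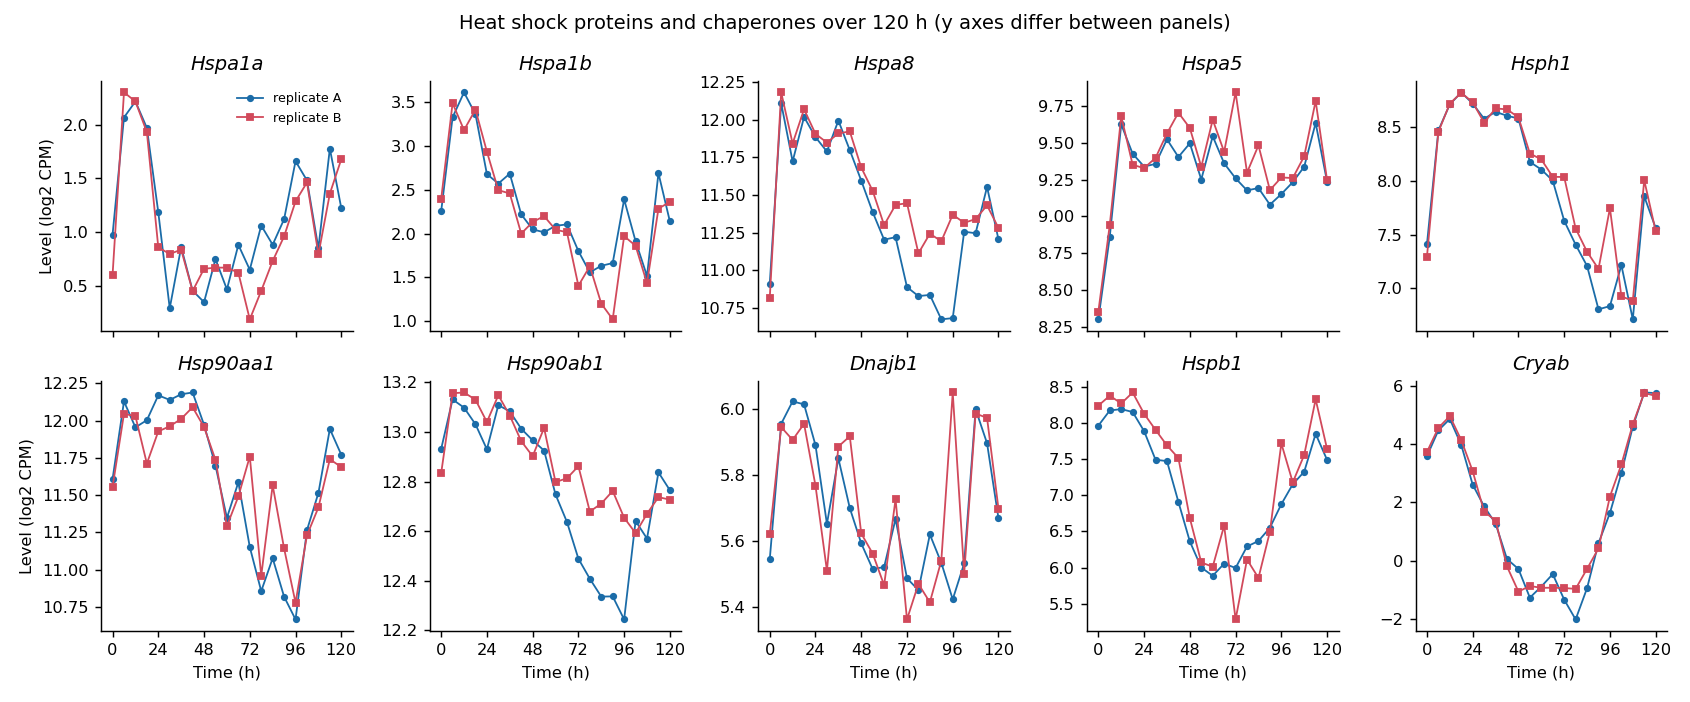
Level in log2 CPM (y axis, own scale in each panel) against time in hours (x axis) for the 10 genes, with 1 point per library, circles for replicate A and squares for replicate B. Hspa1a and Hspa1b are above their 0 h level from 6 to 18 h, Hspa5 stays above its 0 h level, and Hspb1 and Cryab fall and return.

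Hspa8, which encodes the constitutive HSP70 of the cytosol, rose from 10.91 and 10.82 at 0 h to 12.11 and 12.18 at 6 h, its highest time point. The difference of 1.28 ± 0.18 was 2.43-fold (adjusted p = 1.17e-06) and held past the threshold without any single library. The level of Hspa8 stayed above 11.7 in every library until 42 h, and it was called higher than 0 h at 6 of the 20 later times, at 6, 18, 24, 30, 36 and 42 h. It then lay lower, between 10.68 and 11.45 from 72 h to 96 h. Part of its signal could be shared, since 32.1% of its 100-base windows occur in 8 other annotated genes.

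Hsph1, whose product exchanges nucleotide on HSP70, rose at 6 h, and its further difference to 12 h was not called (0.25, adjusted p = 0.295). It stood at 7.41 and 7.29 at 0 h, at 8.47 and 8.45 at 6 h, and reached its maximum of 8.82 in both replicates at 18 h. The rise at 6 h was 1.11 ± 0.17 (2.16-fold, adjusted p = 3.06e-06), and its level was called higher than 0 h at 9 times, all from 6 h to 54 h. Without 6 h replicate A the 6 h difference was 1.1 (adjusted p = 0.000114), and without 0 h replicate B it was 1.05 (adjusted p = 0.000186). None of its 100-base windows occurs in another annotated gene.

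The other members differed less at 6 h. Hsp90aa1, the inducible cytosolic HSP90, was 0.51 ± 0.16 higher (adjusted p = 0.00803), and Dnajb1, the J-domain partner of HSP70, was 0.37 ± 0.12 higher (adjusted p = 0.00979). Cryab was 0.86 ± 0.28 higher (adjusted p = 0.0112). Hspa5 was 0.58 ± 0.13 higher (adjusted p = 0.00029). None of these 4 met the threshold. Hsp90ab1 was 0.26 ± 0.15 higher (adjusted p = 0.148) and Hspb1 0.17 ± 0.25 higher (adjusted p = 0.567).

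Promoter sequences bear on which of these genes carry heat shock units near their start, and 6 of the 10 genes were matched in the RefSeq table of GRCm38.p6: Hspa1a, Hspa1b, Hspb1, Hsph1, Hspa5 and Dnajb1. A heat shock element is built from inverted units of the letters GAA. The 250 bases before each start were searched on both strands for the paired units GAANNTTC and TTCNNGAA, which read the same on both strands, for 3 units in a row (GAANNTTCNNGAA) and for the endoplasmic reticulum stress response element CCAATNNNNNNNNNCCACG. Among 32851 promoters, 6.69% held GAANNTTC, 7.17% held TTCNNGAA, 0.466% held 3 units and 0.113% held the stress response element. No matched promoter held 3 units in a row. Paired units were in those of Hspa1a, Hspa1b, Hspb1 and Hsph1, and the stress response element was in that of Hspa5 alone among the 6. The sequences of the Hspa1 pair (chr17:34972157-34972406 and chr17:34959239-34959488, both on the minus strand) and of Hspb1 (chr5:135887669-135887918, plus strand) are shown whole, 5′ to 3′ up to the start, with paired heat shock units in capitals.
Hspa1a: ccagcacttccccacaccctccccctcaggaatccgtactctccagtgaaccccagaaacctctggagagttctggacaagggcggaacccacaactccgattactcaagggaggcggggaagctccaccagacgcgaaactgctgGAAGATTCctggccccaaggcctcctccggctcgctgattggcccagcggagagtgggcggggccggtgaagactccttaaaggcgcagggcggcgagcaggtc
Hspa1b: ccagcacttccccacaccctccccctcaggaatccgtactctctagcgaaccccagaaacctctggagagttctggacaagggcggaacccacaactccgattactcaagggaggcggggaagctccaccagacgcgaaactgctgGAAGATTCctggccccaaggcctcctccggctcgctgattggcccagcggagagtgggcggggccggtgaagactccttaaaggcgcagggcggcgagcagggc
Hspb1: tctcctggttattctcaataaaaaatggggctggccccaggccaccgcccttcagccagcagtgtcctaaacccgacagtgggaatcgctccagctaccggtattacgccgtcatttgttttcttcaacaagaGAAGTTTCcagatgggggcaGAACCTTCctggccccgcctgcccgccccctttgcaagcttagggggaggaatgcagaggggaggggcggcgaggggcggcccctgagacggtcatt

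The Hspa1a and Hspa1b windows were identical at 247 of 250 bases (98.8%). Counted from 1 at the 5′ end, with the Hspa1a base first, they differed by C44T, T47C and T249G, none of which touches the paired units 104 bases before the start. Hspb1 held 2 pairs, 117 and 97 bases before its start. For Hsph1 and Hspa5 only 30 bases around the match are shown, because GENCODE starts these genes 40 and 120 bases further upstream than RefSeq. Hsph1 has 2 RefSeq starts, and the 40 bases are counted from the more upstream one. The Hsph1 stretch (chr5:149636351-149636380, minus strand) holds paired heat shock units 33 bases before that RefSeq start and 54 bases before the other. The Hspa5 stretch (chr2:34772020-34772049, plus strand) holds the stress response element 65 bases before the RefSeq start of Hspa5. The first 5 letters of this element are also a CCAAT box. Both this element and the Hsph1 units lie after the GENCODE starts, within the genes as annotated there. A match of letters is no measurement of binding.
Hsph1: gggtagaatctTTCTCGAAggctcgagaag
Hspa5: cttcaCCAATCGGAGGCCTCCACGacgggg

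Like Hspa8, Hspa5 had its lowest mean at 0 h, and it alone was called higher than 0 h at most of the later times. It stood at 8.30 and 8.35 at 0 h, at 8.86 and 8.94 at 6 h and at 9.62 and 9.68 at 12 h, and the lowest later library was at 9.08. Of the step from 6 h to 12 h, 0.75 ± 0.13 (1.68-fold, adjusted p = 5.65e-05), the size was 0.71 to 0.79 without each of its 4 libraries in turn, with adjusted p between 0.000723 and 0.00234. It was the only one of the 10 genes that rose in this step, in which 4.35% of all genes were called, 1.47% as higher. Over the 20 later times, 62 of the 200 differences of the 10 genes from 0 h were called, 41 higher and 21 lower (31% against 26.5% of all genes, 13.1% higher and 13.4% lower). Hspa5 was called higher than 0 h at 19 of the 20 later times, all but 6 h, by 0.80 at 90 h to 1.38 at 114 h. Its 96 h difference, 0.88, was 0.82 to 0.94 without each of its 4 libraries in turn and stayed past the threshold. At 120 h it stood at 9.23 and 9.25, a rise of 0.91 ± 0.13 over 0 h (1.88-fold, adjusted p = 5.93e-07).

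**Figure D2:**
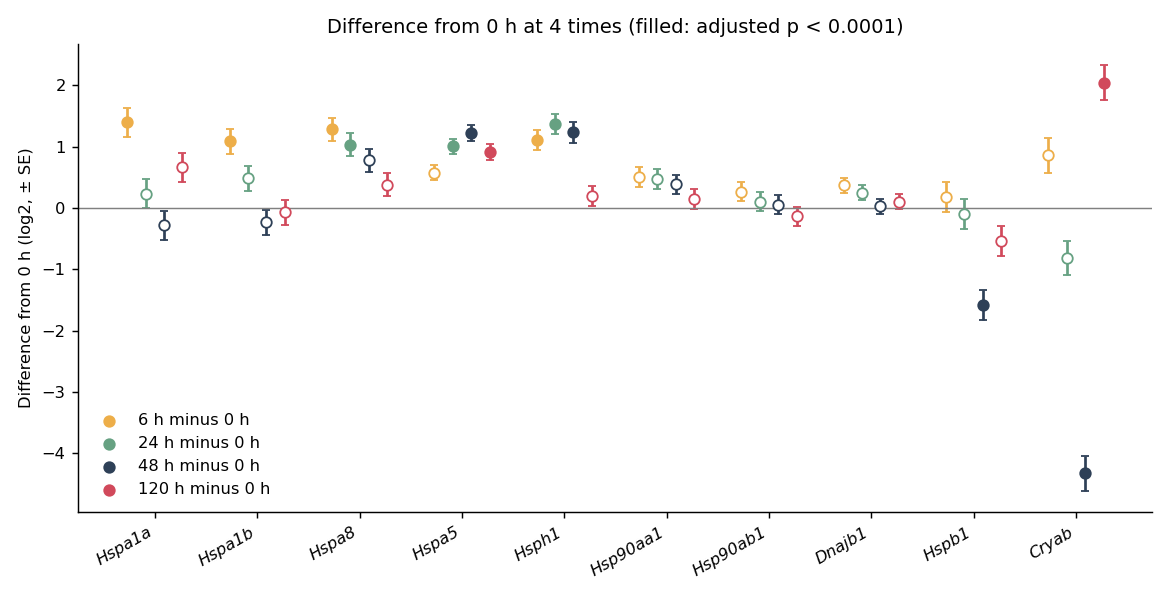
Difference from 0 h in log2 units (y axis) for each gene (x axis) at 6, 24, 48 and 120 h, as the difference of the means of 2 libraries with the SE from limma as bars. Filled points passed adjusted p < 0.0001, among them 4 genes at 6 h and only Hspa5 and Cryab at 120 h.

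At 24 h, 3 of the 10 genes were higher than at 0 h and none was lower (30.0% against 22.7% of all genes, 9.9% higher and 12.8% lower). These were Hsph1, by 1.37 ± 0.17 (2.59-fold, adjusted p = 1.51e-07), Hspa8, by 1.03 ± 0.18 (2.04-fold, adjusted p = 2.9e-05), and Hspa5, by 1.01 ± 0.13 (2.01-fold, adjusted p = 1.76e-07). Without each of its 4 libraries in turn, the Hspa8 difference was 0.985 to 1.08, with adjusted p between 0.000385 and 0.000962.

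At 48 h the genes were split, with 2 higher and 2 lower than at 0 h (40.0% against 30.4% of all genes, 14.8% higher and 15.6% lower). Hsph1 remained 1.23 ± 0.17 above its start (2.35-fold, adjusted p = 4.93e-07) and Hspa5 1.22 ± 0.13 (2.33-fold, adjusted p = 3.33e-09). The small heat shock protein genes were the ones that fell, Hspb1 by 1.58 ± 0.25 on the log2 scale (2.99-fold lower, adjusted p = 3.65e-06) and Cryab by 4.33 ± 0.28 (20.1-fold lower, adjusted p = 5.61e-13). Without 48 h replicate A the Hspb1 difference was -1.42 (adjusted p = 0.000323), and without 0 h replicate B it was -1.44 (adjusted p = 0.000287).

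Cryab encodes alpha B-crystallin, a small heat shock protein abundant in lens and muscle, and it had the widest course of the 10 genes. It began at 3.59 and 3.73 at 0 h, stood at 4.86 and 4.96 at 12 h, and was down to 2.61 and 3.07 at 24 h and to -0.29 and -1.06 at 48 h. From 48 h to 84 h every library lay below 0, with the lowest mean at 78 h (-2.02 and -0.97). It then climbed to 1.64 and 2.20 at 96 h, 4.6 and 4.68 at 108 h, 5.77 and 5.75 at 114 h and 5.75 and 5.65 at 120 h. The 4 libraries of 114 h and 120 h were above every earlier one. Between its lowest and highest time points the mean differed by 7.26, a 153-fold range, which was wider than that of 98.5% of all genes. From 24 h to 48 h it fell by 3.51 on the log2 scale (adjusted p = 1.9e-10). The rise from 48 h to 120 h was 6.38 ± 0.28 (83.1-fold, adjusted p = 1.9e-16), 6.04 in replicate A and 6.71 in replicate B. The net rise from 0 h to 120 h was 2.04 ± 0.28 (4.13-fold, adjusted p = 7.32e-07).

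Cryab was called lower than 0 h at each time from 30 h to 96 h and higher at 114 h and 120 h. From 72 h to 96 h it rose by 3.06 (8.32-fold, adjusted p = 1.04e-08), or by 3.34 without 96 h replicate A and 2.77 without 96 h replicate B, both past the threshold. From 96 h to 120 h it rose by 3.78 (13.8-fold, adjusted p = 3.1e-10), or by 3.50 and 4.07 without those libraries. Its difference at 96 h from 0 h, -1.74, was not past the threshold without 0 h replicate A (-1.81, adjusted p = 0.000144), 96 h replicate A (-1.46, adjusted p = 0.000661) or 0 h replicate B (-1.67, adjusted p = 0.000368).

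Hspb1, the mouse HSP25 gene, has a shallower fall and return. It stood at 7.96 and 8.24 at 0 h, at 8.15 and 8.42 at 18 h, at 6.36 and 6.68 at 48 h, and at its lowest at 72 h, with 5.99 in replicate A and 5.28 in replicate B. It was back at 7.85 and 8.33 at 114 h and at 7.49 and 7.64 at 120 h. The range of its means was 2.65, or 6.27-fold. It was called lower than 0 h at 8 times, all those from 48 h to 90 h. The fall from 24 h to 48 h was 1.49 ± 0.25 on the log2 scale (2.80-fold lower, adjusted p = 2.76e-05), and 1.32 to 1.65 without each of its 4 libraries in turn, with adjusted p between 0.000191 and 0.00188. The rise from 72 h to 96 h was 1.66 ± 0.25 (3.16-fold, adjusted p = 1.61e-05), of 0.88 in replicate A and 2.44 in replicate B. It was 2.08 without 96 h replicate A, 1.30 without 72 h replicate B (adjusted p = 0.00263) and 1.24 without 96 h replicate B (adjusted p = 0.00147), and the call was lost in the last 2 cases. Of the 100-base windows of Hspb1, 42.7% occur in other annotated genes, most often in the pseudogene Hsp25-ps1, so some reads could be counted for either.

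**Figure D3:**
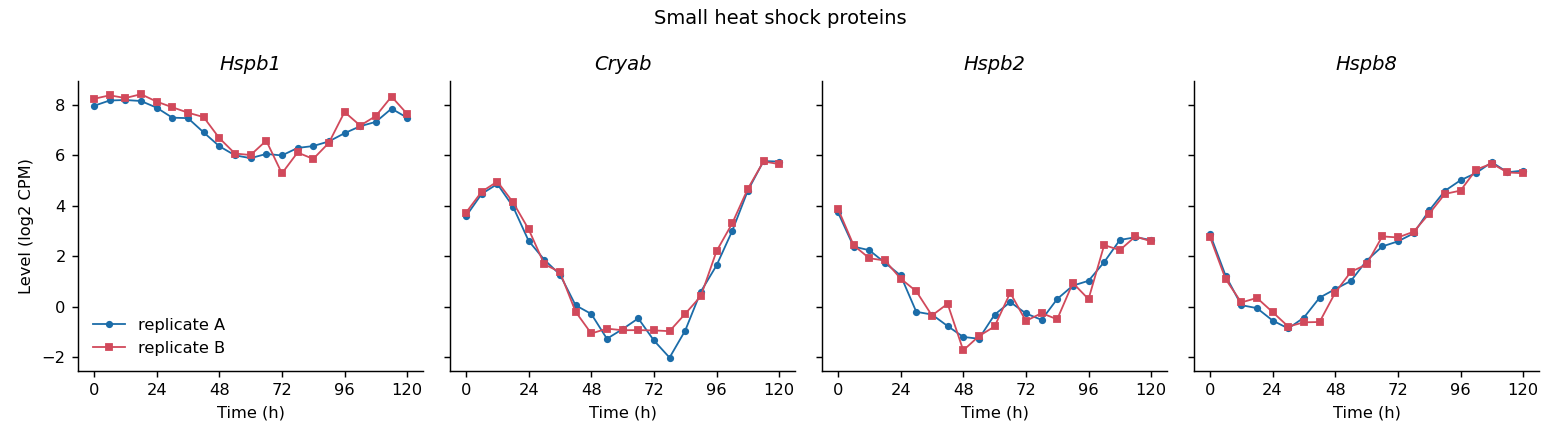
Level in log2 CPM (y axis, shared) against time in hours (x axis) for the small heat shock protein genes Hspb1, Cryab, Hspb2 and Hspb8, circles for replicate A and squares for replicate B. Each is lower in mid-course than at 120 h, and Cryab spans from -2.02 to 5.77 while Hspb8 is already at its lowest, -0.86 and -0.79, at 30 h.

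Of 9 other small heat shock protein genes, 4 were in the files: Hspb2, Hspb6, Hspb8 and Hspb11. From 0 h to 48 h, 3 of these fell and none rose, against 15.6% of all genes lower and 14.8% higher. Hspb2, next to Cryab on chromosome 9, fell by 5.27 ± 0.32 on the log2 scale, from 3.73 and 3.88 to -1.20 and -1.73 (adjusted p = 1.24e-13). Its course resembled that of Cryab, with r = 0.89 over the 21 time points, but at 6 h it was lower than at 0 h (2.38 and 2.43) while Cryab was higher. Neither of these differences at 6 h was past the threshold. The genes lie on opposite strands with starts 1029 bases apart and overlap at chr9:50751325-50752354, and 15% of the 100-base windows of Cryab occur in Hspb2. The libraries were stranded, but whether the counting used the strand is not given in the sources used here, so reads of the overlap could be counted for either. Hspb8 fell by 1.66 at 6 h (adjusted p = 2.47e-07), stood at -0.86 and -0.79 at 30 h and at 5.39 and 5.29 at 120 h, which was 2.52 ± 0.21 above 0 h (adjusted p = 1.14e-10).

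Markers of fibroblasts moved in the same late period. Of the 5 feeder fibroblast markers in the files, 3 were called higher and 1 lower at 120 h than at 0 h, against 12.9% and 10.1% of all genes. The lower one was Thy1, with a mean of 4.37 log2 CPM at 0 h and 1.82 at 120 h. Among the higher ones, Col1a2 went from -3.25 to 4.66 and Postn from -4.78 to 2.29. The summed level of the 5 was 24.3 and 28.1 CPM at 0 h and 10.1 and 8.67 CPM at 48 h. It was 23.9 and 8.91 CPM at 96 h and 99.5 and 88.8 CPM at 120 h. This sum was not carried by the same genes at 0 h and 120 h. At 0 h, 3 of the 5 were at 3 reads or fewer, and at 120 h none was. The part of fibroblasts in the late levels of Cryab, Hspb1 and Hspb8 was not tested.

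The HSP90 genes differed from each other in the size of their courses. Hsp90aa1 stood at 11.61 and 11.55 at 0 h, at 12.19 and 12.09 at 42 h, its highest, and at 10.66 and 10.78 at 96 h, its lowest, before 11.77 and 11.69 at 120 h. It fell by 0.86 on the log2 scale between 0 h and 96 h (adjusted p = 5.05e-05) and rose by 1.01 ± 0.16 between 96 h and 120 h (2.01-fold, adjusted p = 5.81e-05). Without each library in turn these were -0.92 to -0.80, with adjusted p of 0.000329 to 0.00127, and 0.95 to 1.06, with adjusted p of 0.000362 to 0.00246, so that both calls were lost each time. Hsp90ab1, the constitutive cytosolic HSP90, lay between 12.24 and 13.16 in every library, with a range of means of 0.70, smaller than that of all but 7.5% of genes. It was not called against 0 h at any time, and it was the only member not called by the moderated F-test over the 21 time points (adjusted p = 0.000355). That test called 9 of the 10 members, against 74.6% of all genes.

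Dnajb1 had the narrowest course of the 10, from a mean of 5.42 at 72 h to 5.99 at 108 h, a range of 0.57 that was wider than only 2.8% of genes. Its replicates at 96 h, 5.42 in A and 6.05 in B, were far apart, and the latter was its highest library. Its difference between 72 h and 96 h, 0.31 (adjusted p = 0.0495), was 0.63 without 96 h replicate A (adjusted p = 2.02e-05) and -0.00138 without 96 h replicate B (adjusted p = 0.994). It was called by the F-test (adjusted p = 7.05e-05) but at none of the 20 times against 0 h.

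Between 108 h and 114 h, Hsph1 rose from 6.71 and 6.88, its lowest time point, to 7.85 and 8.01. The difference of 1.13 ± 0.17 (2.19-fold, adjusted p = 3.33e-05) was the only one of the 10 called in this step, in which 1.72% of all genes were called, 0.986% as higher. Without each of its 4 libraries in turn it was 1.04 to 1.22, with adjusted p between 0.00037 and 0.00193. Hspa1b was 1.01 ± 0.20 higher (adjusted p = 0.000777) and Hspa1a 0.75 ± 0.24 higher (adjusted p = 0.0251). Cryab was 1.12 ± 0.28 higher (adjusted p = 0.00525). In the step before, from 102 h to 108 h, none of the 10 was called by limma (0 of 10 against 2.04% of all genes), with 3 at an unadjusted p under 0.05, as were 26.5% of all genes. Over all 20 steps of 6 h, 6 of the 200 differences were called, against 1.77% of those of all genes: 4 at 0 to 6 h, Hspa5 at 6 to 12 h and Hsph1 at 108 to 114 h.

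From 48 h to 72 h none of the 10 was called by limma (against 9.38% of all genes), while 5 had an unadjusted p under 0.05, as did 48.8% of all genes. The median difference of the 10 was -0.47, against 0.01 for all genes. The difference of Hsph1 in this interval was -0.75 (1.69-fold lower, adjusted p = 0.000829). From 24 h to 48 h, Hspb1 and Cryab were the 2 members called, both lower (20.0% against 8.97% of all genes, 3.7% lower). From 72 h to 96 h the same genes were called, both higher (20.0% against 3.39%, 2.39% higher). In that interval the difference of Hsph1 was -0.54 (adjusted p = 0.0169), or -0.996 and past the threshold without 96 h replicate B (adjusted p = 9.32e-06). That of Hsp90aa1 was -0.73 (adjusted p = 0.00118), or -1.04 and past the threshold without 72 h replicate A (adjusted p = 4.43e-05). From 96 h to 120 h Hsp90aa1 and Cryab were called, both higher (20.0% against 1.94%, 1.25% higher).

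By 120 h, 2 of the 10 genes stood above 0 h, Cryab and Hspa5, and none below (20.0% against 23% of all genes, 12.9% higher and 10.1% lower). Against 48 h, Cryab was higher and Hsph1 lower at 120 h (20.0% against 25.2% of all genes, 14.2% higher and 11% lower). Hsph1 fell by 1.04 ± 0.17 on the log2 scale (2.05-fold lower, adjusted p = 8.09e-06), or by 1.02 to 1.05 without each of the 4 libraries in turn, with adjusted p between 0.000193 and 0.000269. These comparisons share their 0 h or 48 h libraries.

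Per kilobase of exon, the members covered a wide span of levels. Hsp90ab1 was highest, at a mean of 2419 CPM per kb over the 42 libraries, which ranked it 11 among 14177 genes with a length. It was followed by Hsp90aa1 at 802, Hspa8 at 651, Hspa5 at 152 and Hspb1 at 138 CPM per kb. Lower still were Hsph1 at 34.2, Dnajb1 at 16.2, Cryab at 2.38, Hspa1b at 1.69 and Hspa1a at 0.70 CPM per kb. Hsp90ab1 was above Hsp90aa1 in 42 of 42 libraries, from 2.36 times at 42 h to 4.34 times at 96 h in the means of the replicates. At 96 h the log2 difference was 1.97 in replicate A and 2.27 in replicate B. Of the 100-base windows of Hsp90aa1, 47.5% occur in other annotated genes, most often in Gm12346, and none of those of Hsp90ab1 do, so the level of Hsp90aa1 and this ratio are uncertain by the reads that could be counted elsewhere. Hspa8 was above Hspa5, Hspb1 above Hsph1 and Hspa1b above Hspa1a in 42 of 42. The order of other neighbours did not hold throughout. Hsph1 was above Dnajb1 in 40 of 42 libraries, Hsp90aa1 above Hspa8 in 38 and Dnajb1 above Cryab in 37. Cryab was above Hspa1b in 23 of 42 and Hspa5 above Hspb1 in 22. At 120 h Cryab had 35.2 CPM per kb, above the 25.7 of Hsph1 and the 16 of Dnajb1.

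**Figure D4:**
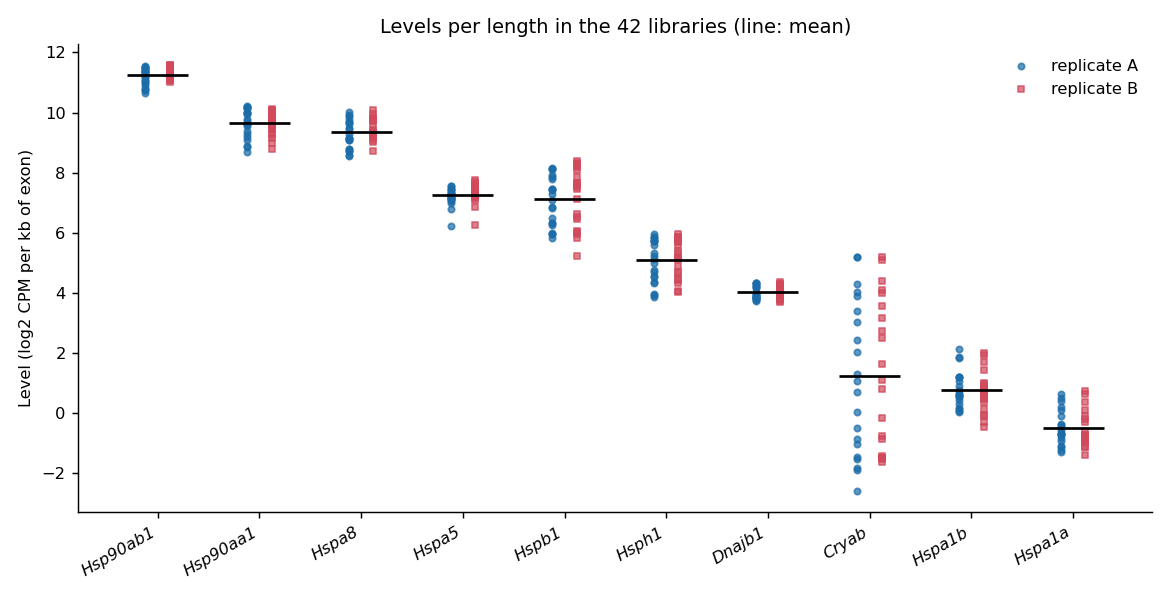
Level per length, in log2 CPM per kilobase of exon (y axis), for each gene (x axis) in the 42 libraries, circles for replicate A and squares for replicate B, with the mean as a line. The points of Hsp90ab1 lie above all of Hsp90aa1 in the same library, while those of Cryab spread from -2.58 to 5.21.

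Hspa1b exceeded Hspa1a per kilobase in all 42 libraries, but by an uneven factor. It was 3.06 times Hspa1a at 0 h, 4.20 times at 30 h, 1.30 times at 90 h and 1.84 times at 120 h. From 78 h on the ratio of the means was at most 2.0, and up to 72 h it was at least 2.40. The part of shared reads in this ratio was not tested.

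Likeness of the courses was described by Pearson's r over the 21 time points. Hsph1, Hspa8, Hsp90aa1 and Hsp90ab1 had r between 0.80 and 0.90 with each other, 0.84 to 0.94 in replicate A alone and 0.70 to 0.85 in replicate B alone. Hspa1b was near them, with r between 0.66 and 0.81. Hspb1 and Cryab had r = 0.87. Hspa5 had r of no more than 0.39 with any other member. Hspb8 ran opposite to Hsph1, with r = -0.90. These are descriptions of smooth courses that share their libraries.

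Among the 12911 genes whose mean reached 0 log2 CPM, the gene most like each member was Zfyve19 for Hspa1a (r = 0.93), Epop for Hspa1b (0.95), Eif2ak1 for Hsph1 (0.98) and ENSMUSG00000083840.2 for Hspa8 (0.965). It was Ctps for Hsp90aa1 (0.93), Tns3 for Hsp90ab1 (0.96), Bet1l for Dnajb1 (0.94), Capns1 for Hspb1 (0.97) and AU015836 for Cryab (0.96). For Hspa5 the highest value was lower, with Ncbp1 at 0.85, Manf at 0.84 and Sms at 0.83.

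Other genes of the chaperone network were taken from lists, whose counts at 6 h stand beside 26.3% of all genes called, 11.8% higher and 14.5% lower, and a median of -0.05. Of 22 inducible targets of HSF1 other than the members, 4 rose and 3 fell at 6 h, with a median of 0.29. Zfand2a, which encodes a stress-induced proteasome partner, rose from 3.13 and 3.04 to 4.97 and 4.75, by 1.78 ± 0.18 (adjusted p = 2.58e-09). Dnaja1, an HSP40 gene, rose by 1.20 ± 0.14 (adjusted p = 6.97e-08), while Dnajb4, another HSP40 gene, fell by 1.1 on the log2 scale (adjusted p = 6.73e-07). Of 10 heat shock factors and regulators, 1 rose at 6 h and none fell. That one was Sirt1, a deacetylase, by 1.37 (adjusted p = 1.29e-08), while Hsf1 stood at 5.42 and 5.45 at 0 h and at 5.25 and 5.37 at 6 h. Immediate early genes, which many stimuli induce, included 6 that rose and 1 that fell of 12, among them Fosl1 by 5.11 (adjusted p = 5.94e-10) and Atf3 by 2.12 (adjusted p = 2.54e-07). Of 10 genes of the integrated stress response, 1 rose and 1 fell, Atf4 by 0.93 (adjusted p = 3.79e-06) and Ddit4 by -1.41 (adjusted p = 6.53e-08).

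J-domain proteins, which start the HSP70 cycle, held 8 of 41 genes called higher at 6 h and 4 lower, against 11.8% and 14.5% of all genes, with a median of 0.18. Dnajc25 rose by 1.86 ± 0.18 (adjusted p = 1.18e-09), and Dnajc22 fell by 1.51 on the log2 scale (adjusted p = 2.95e-10). Of 8 other HSP70 and HSP110 genes, 1 rose and 1 fell, Hspa13 by 1.23 (adjusted p = 2.05e-08) and Hspa12a by -2.29 (adjusted p = 1.93e-09). Of 32 cochaperones of HSP70 and HSP90, 4 rose and 1 fell. Chordc1 rose by 0.74 (adjusted p = 2.66e-06) and Bag2 fell by 1.81 on the log2 scale (adjusted p = 9.57e-10).

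Around Hspa5, 5 of 33 genes of the endoplasmic reticulum rose at 6 h and 6 fell, against 11.8% and 14.5% of all genes, with a median of 0.09. Its J-domain partner Dnajb11 rose by 1.0 ± 0.18 (adjusted p = 3.16e-05), whereas Sil1, its nucleotide exchange factor, fell by 1.97 on the log2 scale (adjusted p = 4.36e-09). Hsp90b1, the HSP90 of that compartment, stood at 9.60 and 9.47 at 0 h and at 9.35 and 9.32 at 6 h. At 120 h 3 were higher and 3 lower than at 0 h, against 12.9% and 10.1% of all genes. Serpinh1, the collagen chaperone HSP47, was highest among the rises, from 4.87 and 5.05 to 7.82 and 7.79 (2.85 ± 0.13, adjusted p = 2.54e-16), and Derl3, of the degradation pathway, fell by 2.31 on the log2 scale (adjusted p = 1.14e-09).

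Between 48 h and 120 h, 25.2% of all genes were called, 14.2% higher and 11% lower, and the median of all genes was 0.003. Of 32 cochaperones, 8 were lower and none higher, with a median of -0.37. Of 17 subunits of the chaperonin TRiC and prefoldin, 4 were lower and none higher, with a median of -0.55. Of 12 mitochondrial chaperones and proteases, 3 were lower and none higher, with a median of -0.46. Hspd1, the mitochondrial HSP60, fell by 0.99 on the log2 scale (adjusted p = 2.25e-07), and Hspa4, an HSP110 gene, fell by 0.80 (adjusted p = 1.26e-06). Of the heat shock factors and regulators, 2 of 10 were lower, and of the other HSP90 genes 1 of 2, with none higher in either list. Meanwhile 3 of the 4 other small heat shock protein genes and 8 of the 12 immediate early genes were higher, with none lower. Of 41 J-domain proteins 5 were higher and 1 lower, and of 22 HSF1 targets 3 were higher and 5 lower. Of the 8 other HSP70 and HSP110 genes 1 was higher and 1 lower. Of 33 endoplasmic reticulum genes 1 was higher and none lower, and of 10 integrated stress response genes 3 were higher and 1 lower. Some genes, such as Hspa4 and Trap1, stand in more than 1 list. Bag3, a cochaperone that links HSP70 to small heat shock proteins, stood at 5.20 and 5.39 at 48 h and 5.86 and 5.92 at 120 h, and was 1.23 above 0 h at 120 h (adjusted p = 1.12e-06).

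The replicates came apart in the second part of the course. From 72 h to 96 h, replicate B was above replicate A at 5 of 5 time points for Hsph1, Hspa8, Hsp90aa1, Hsp90ab1 and Hspa5, by means of 0.24 to 0.49. Over the other 16 time points the mean difference of these genes was -0.10 to 0.07. Of all 21 time points, replicate B was above at 19 for Hspa5, 18 for Hspa8, 15 for Hsph1, 14 for Hsp90ab1 and 7 for Hsp90aa1. The share of all genes with replicate B above at all 5 time points was not determined. Hspa1a was lower in replicate B at all 5 time points, by a mean of -0.35. Hspb1 was higher in replicate B at all of the other 16 time points, by a mean of 0.265. From 72 h to 96 h its mean difference was -0.124. At 96 h alone, Hsph1 was 6.83 in A and 7.75 in B, Hspb1 6.88 and 7.72, and Hspa8 10.68 and 11.37. With 1 library per time point and replicate, a difference between cultures and one between libraries cannot be told apart.

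**Figure D5:**
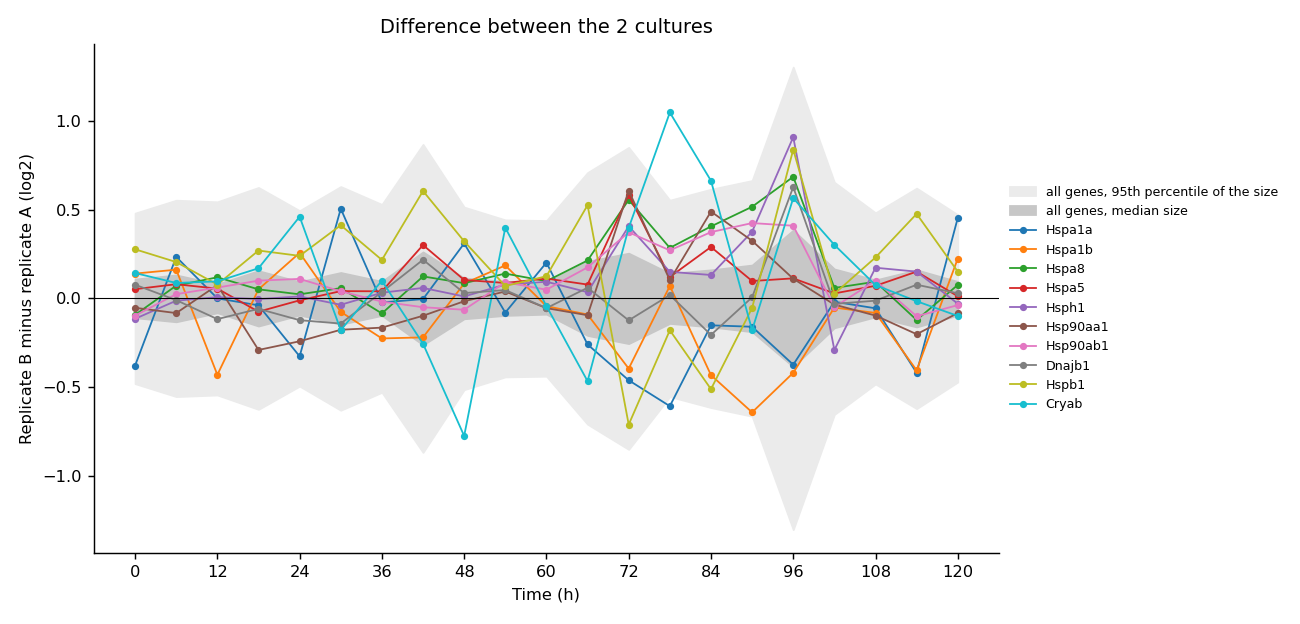
Replicate B minus replicate A in log2 units (y axis) against time in hours (x axis), with a line for each of the 10 genes. The dark band spans the median and the light band the 95th percentile of the absolute difference over all genes. From 72 h to 96 h Hspa8, Hsph1, Hsp90aa1, Hsp90ab1 and Hspa5 are above 0 at all 5 time points.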

How the data were processed

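Per the sources, the authors used Trim Galore! on the paired reads, Tophat2 for alignment against mm10 and HTSeq for gene counts on GENCODE vM2. The authors then retained genes over 1 CPM in 2 or more samples, scaled the libraries with edgeR and applied voom. Versions, the use of strand and the treatment of reads with several matches are not given in the sources used here. The deposited values are log2 CPM with the offset of voom, 1 file per library. The reads behind each value were recovered with the voom formula, to within 1.48e-08 of a whole read, with a median of 29692082 per library, and 3 reads corresponded to 0.057 to 0.316 CPM.

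Differences were tested with limma 3.58.1 in R 4.3.3 (lmFit and eBayes with a trend) on the deposited values of all 42 libraries, with a factor of 21 time points and 21 residual degrees of freedom. Within a contrast, Benjamini-Hochberg adjustment ran over the 14296 genes, and the threshold was the 0.0001 used in the study. The scripts were tested on simulated data. Where a library was left out, the lone library of its time point was assumed to vary like the others. The design text calls the replicates biological duplicates, and p-values measure the spread between them.

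GENCODE vM21 held 14177 of the 14296 identifiers, and promoters came from RefSeq. Levels per kb used the union of exons. All 10 members were named, with the 3 genes most like each by Pearson's r (1 of the 3 is printed for most) and, from each other list, up to 2 rises and 2 falls per contrast with the largest change in both replicates at 6, 48 and 120 h. Not every gene so selected is printed. Other genes that are named, such as Hsf1 and Hsp90b1, were chosen after their values were seen. The members and lists were chosen with earlier results of these data known. Python 3.11.15, numpy 2.4.6, pandas 2.3.3 and matplotlib 3.10.9 were used.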

Additional observations from a re-analysis of the deposited data

How the results depend on the processing

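The alternatives were a replicate block, eBayes without the trend, voom precision weights, median-of-ratios size factors, a filter at a mean of 0 log2 CPM, a threshold of 0.05, adjustment over all contrasts, each library or each culture left out, and, chosen after seeing the data, the libraries of 72 h to 96 h left out. Members called at adjusted p under 0.05 numbered 8 at 6 h minus 0 h (58% of all genes), 6 at 24 h minus 0 h (55.6%), 4 at 72 h minus 48 h (40.9%), 8 at 96 h minus 72 h (28.9%), 5 at 120 h minus 48 h (57%), 2 at 108 h minus 102 h (15.5%) and 4 at 114 h minus 108 h (20.7%). Without the trend, 0 were called at 12 h minus 6 h in place of 1. For 108 h minus 102 h and 114 h minus 108 h, precision weights gave 1 and 2 members, and leaving out 72 h to 96 h gave 2 and 2, against 0 and 1. The cause was not tested.

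With 1 library left out at a time, the counts were 1 to 3 at 6 h minus 0 h (4 in the full set), 0 at 12 h minus 6 h (1), 2 at 24 h minus 0 h (3), 1 at 48 h minus 24 h (2), 1 to 3 at 96 h minus 72 h (2), 1 at 120 h minus 96 h (2), 3 to 4 at 48 h minus 0 h (4), 1 at 120 h minus 48 h (2), 0 at 114 h minus 108 h (1) and 8 to 9 over the 21 time points (9), with fewer samples in each test. The counts at 120 h minus 0 h (2), 72 h minus 48 h (0) and 108 h minus 102 h (0) kept their values. The 332 single differences recomputed in this way came from 83 with adjusted p under 0.05 in the full set, of which 39 were called there. Only recomputations of those 39, 4 for each, could lose a call, and 59 did. Of the 332, 1 changed sign: Dnajb1 at 96 h minus 72 h, 0.31 in the full set, was -0.00138 without 96 h replicate B. It was -0.064 in culture A alone (without replicate B) and 0.69 in culture B alone (without replicate A).

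Deviations were shared in part among libraries of the same letter. Across 210 such pairs the residual correlation averaged 0.119 (-0.437 to 0.653), and it was positive in 72.9% and over 0.1 in 56.2%. The main fit has no term for this sharing and treats the libraries as independent. Because not every pair was over 0.1, the replicate block is given only here. With it, 5 members were called at 6 h minus 0 h, Hspa5 included (adjusted p = 2.47e-05), 5 at 48 h minus 0 h, Hspa8 included (adjusted p = 7.34e-05), and 10 over the 21 time points. Of 83 single differences, 3 gained a call with the block and none lost one. Median-of-ratios size factors changed no call among the 83 and shifted single libraries by -0.0463 to 0.0263 log2 units. Adjustment over all contrasts removed 3 calls. The order of levels per kilobase was the same with the longest transcript. Depth limited Cryab most, with 5 reads in its lowest library.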
